A study of Rattus norvegicus with 18 samples.

Results

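The comparison of ZSF1 lean with WKY left ventricle is described here from the complete list of genes that the authors deposited for it. The list holds 233 Ensembl gene identifiers, of 6588 identifiers that appear in at least 1 of the study's 3 lists. Its members are all rows of the authors' table for that pair of groups. RNA with a poly(A) tail was sequenced from the left ventricle of male rats, with 6 WKY rats as the control strain and 6 ZSF1 lean rats as the hypertensive group. A further group of 6 ZSF1 obese rats, with hypertension and metabolic syndrome, enters only through the other lists, obese against WKY with 5709 identifiers and obese against lean with 5700. No treatment, age or further allele is given in the labels, which name each group by strain and body type alone. The samples behind the lean comparison are 12 of 18 rats, and each table gives 1 fold and 1 adjusted p per gene, with no value per rat. Levels are not given either, so the tissue was not checked against heart markers. Adjusted p-values come from the authors' fit, which sets each group difference against the spread between these rats. They do not give that spread.

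WKY is the normotensive inbred strain commonly used as a control for spontaneously hypertensive rats. ZSF1 rats descend from a cross of a Zucker diabetic fatty line with a spontaneously hypertensive, heart failure prone line, and the obese animals carry defective leptin receptor alleles, while lean littermates keep a working one. Lean ZSF1 rats therefore differ from WKY rats in ancestry throughout the genome as well as in blood pressure. Strain and hypertension cannot be told apart in this comparison. In the left ventricle, sustained pressure load is known for growth of the muscle cells, a return of fetal genes such as those for natriuretic peptides, and deposition of matrix.

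In the authors' deposited table, 149 genes were higher and 84 were lower in lean ZSF1 than in WKY ventricle. The genes that were not listed are unknown, so the share of tested genes that passed cannot be given. Of the 6588 identifiers in any of the 3 lists, 3.54% were listed for lean against WKY, 2.26% as higher and 1.28% as lower. The same background was 86.7% for obese against WKY and 86.5% for obese against lean. Higher genes had a median fold of 2.41 and lower genes one of 0.44 according to the authors' deposited table. In lean ventricle 3 genes were at least 10 times as high as in WKY, and 17 at least 5 times. Only Egfl6 was lower by a factor of 5 or more, at 0.19.

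All listed folds were at least 2 or at most 0.5, and the largest adjusted p was 0.000347. The obese tables run to adjusted p-values of 0.0499 and 0.0498 under the same fold limits. Of the higher genes, 50 of 149 had a fold from 2 to 2.2, and of the lower genes 40 of 84 had one from 0.45 to 0.5. Many members therefore sit just inside the fold limit, and the genes just outside it are not part of the table.

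**Figure D1:**
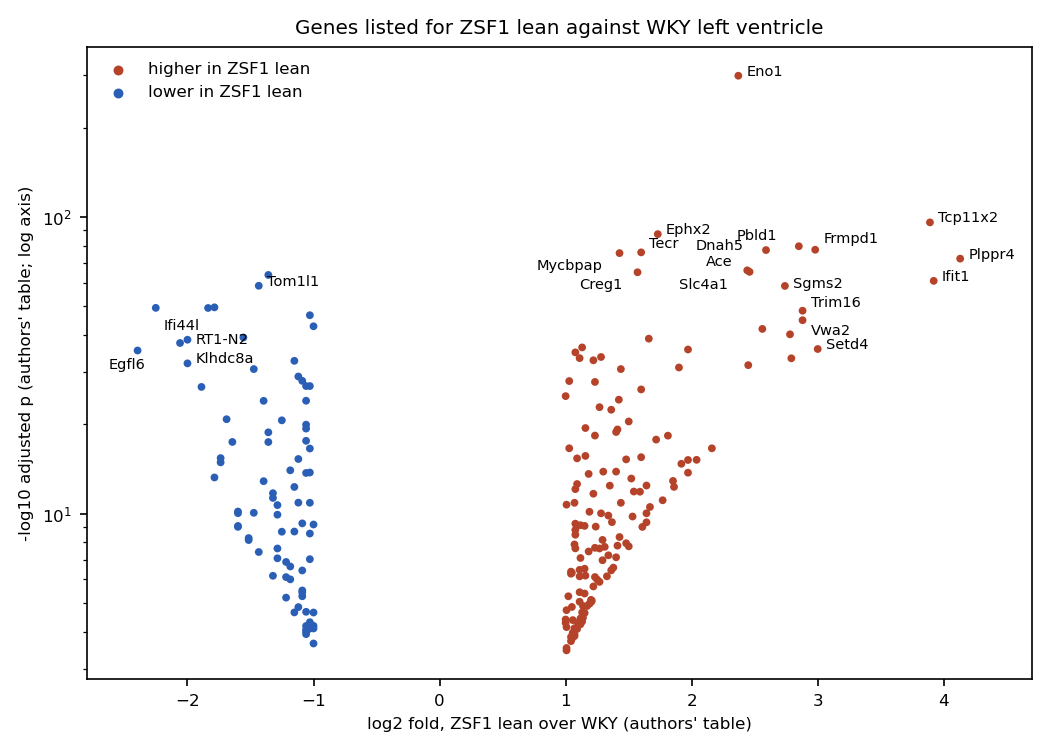
Each point is 1 of the 233 listed genes, with the log2 fold of ZSF1 lean over WKY on the horizontal axis and the negative log10 of the adjusted p on a logarithmic vertical axis, both from the authors' deposited table. Points in red are higher and those in blue lower in lean ventricle. Eno1 stands above all other genes, and Plppr4, Ifit1 and Tcp11x2 lie farthest to the right.

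The highest folds belonged to a neuronal, an interferon-induced and a testis gene. Plppr4 (ENSRNOG00000016872), a lipid phosphatase-related membrane protein of neurons, was 17.5 times as high in lean as in WKY ventricle by the authors' deposited table (adjusted p = 4.49e-73). Ifit1 (ENSRNOG00000019050), an interferon-induced inhibitor of viral RNA translation, had a fold of 15.1 (adjusted p = 1.33e-61) per the authors' deposited table. Tcp11x2 (ENSRNOG00000011034), a member of a testis gene family on the X chromosome, had a fold of 14.8 (adjusted p = 1.40e-96) according to the authors' deposited table. The next folds were lower. The authors' deposited table gave 8.00 for Setd4, a methyltransferase gene, 7.89 for Frmpd1, 7.36 for both Trim16 and Vwa2, and 7.21 for Pbld1. The row with the symbol Trim16 carries the description of another gene, Fbxw10, so which gene was counted is uncertain. Sez6l at 6.92, Fbp2 at 6.87, Sgms2 at 6.68 and Dnah5 at 6.02 completed the 12 highest folds by the authors' deposited table.

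Among lower genes, the authors' deposited table placed Egfl6, a secreted matrix protein, at 0.19 of the WKY level (adjusted p = 3.45e-36) and Ifi44l, an interferon-induced gene, at 0.24 (adjusted p = 2.60e-38). Between them lay a gene known only by a clone name, at 0.21 in the authors' deposited table. RT1-N2, of the rat major histocompatibility complex, and Klhdc8a stood at 0.25, Ccdc68 at 0.27 and Pus7l at 0.28 per the authors' deposited table. Tdrd1, a germline gene of the piRNA pathway, stood at 0.29 (adjusted p = 2.72e-50) according to the authors' deposited table. The range of lower genes was thus narrower than that of higher genes.

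Lists of pathways and cell types were drawn up with earlier results of these data known, and a gene absent from a table may have missed the fold limit, the adjusted p limit or detection. In the authors' deposited table for lean against WKY, none of 22 natriuretic peptide, fetal and hypertrophy genes was listed. None of 23 sarcomere genes, 32 genes of calcium handling and ion channels, 29 genes of pyruvate dehydrogenase and the tricarboxylic acid cycle or 32 nuclear genes of the respiratory chain and ATP synthase was listed either. At the background of 3.54%, lists of this length hold about 1 member or none, so these counts lie near background. Every background share set beside a list, here and below, counts only identifiers that some table lists. The lists also count genes that no table lists, so such background shares are high for them. Of 23149 protein-coding genes of a reference annotation, 0.881% were placed by symbol as listed for lean against WKY. The obese tables listed 28 of those 29 pyruvate and tricarboxylic acid cycle genes, all as lower, against WKY and against lean, beside 39.8% and 40.3% of all identifiers listed as lower there. Of the 28 lists, 18 had no member in the lean comparison. Of the 11 sets of cell type markers, 9 had 0 members listed, and those of neutrophils and erythroid cells had some. With 10 to 13 markers a set, 0 is near the background of 3.54%.

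**Figure D2:**
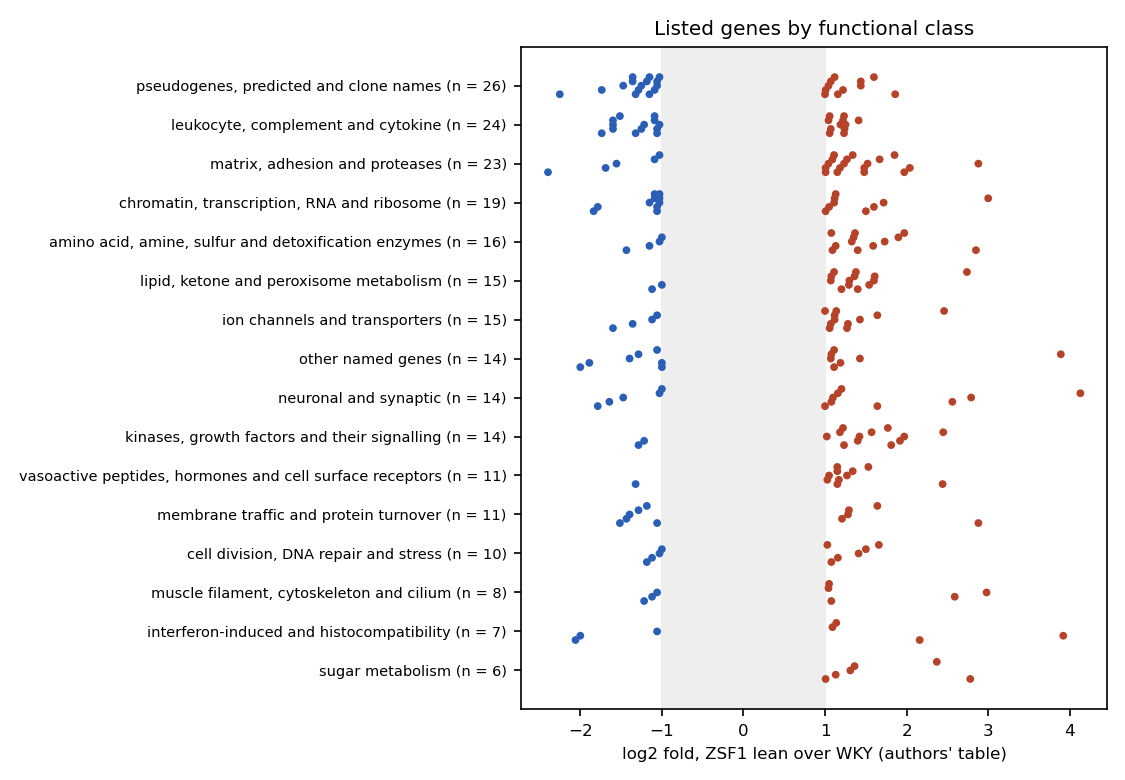
Every listed gene is drawn by functional class, with the log2 fold of ZSF1 lean over WKY from the authors' deposited table on the horizontal axis. Red points are higher and blue points lower in lean ventricle, vertical offsets within a class only separate points, and the grey band covers folds under the listing limit. All 6 genes of sugar metabolism are red, and 13 of 24 leukocyte, complement and cytokine genes are blue.

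For a reading by function, each member was put in 1 class by hand from its symbol and description. This was done after the table with its folds had been read. The list as a whole had 63.9% of its genes higher, which is the figure to hold each class against, and no class was tested. The classes with the most lopsided counts were sugar metabolism with 6 higher and 0 lower, vasoactive and other cell surface receptors with 10 and 1, lipid metabolism with 13 and 2, and kinases and growth factors with 12 and 2. Leukocyte genes split into 11 and 13, and genes of chromatin, transcription and RNA into 9 and 10. Pseudogenes, predicted genes and clone names made up 26 members, 11 higher and 15 lower.

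Sugar metabolism held the smallest adjusted p of the table. Eno1 (ENSRNOG00000017895), the enolase of most tissues and the fetal heart, had a fold of 5.17 with an adjusted p of 6.61e-300 by the authors' deposited table. A pseudogene of Eno1, singled out after its values were seen, stood at 0.39 (adjusted p = 1.83e-64) per the authors' deposited table. Reads from such near-identical copies can be assigned to either, and the part of this in the fold of Eno1 was not tested. Enzymes of both directions of the pathway were higher. Fbp2, the muscle fructose bisphosphatase, had a fold of 6.87 and Pck1, which commits carbon to glucose synthesis, one of 2.57 according to the authors' deposited table. Pfkl, the liver form of phosphofructokinase, had a fold of 2.19 and Pfkfb1, which sets the level of its activator, one of 2.48 by the authors' deposited table. Slc2a7, a sugar transporter, had a fold of 2.01 per the authors' deposited table. Pck1, Pfkl and Pfkfb1 are best known from liver.

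In obese ventricle these genes took separate courses. Against WKY, the authors' deposited table listed Fbp2 at 5.94, Pfkfb1 at 3.48 and Eno1 at 2.57. Against lean, it listed Pck1 at 0.078 and Eno1 at 0.48. Pfkl and Slc2a7 were in neither obese table. The Eno1 pseudogene stood at 0.06 in obese against WKY and at 0.158 in obese against lean by the authors' deposited tables.

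Lipid genes were mostly higher. Several act on sphingolipids, the membrane lipids built from ceramide. Per the authors' deposited table, Sgms2, which turns ceramide into sphingomyelin, had a fold of 6.68, Sphk1, which makes the signal lipid sphingosine 1-phosphate, one of 2.46, and Acer2, a ceramidase, one of 2.11. Fa2h, which hydroxylates the fatty acids of sphingolipids, had a fold of 2.91 according to the authors' deposited table. All 4 were thus higher in lean than in WKY ventricle. Against WKY, obese ventricle had folds of 2.50 for Sgms2, 4.44 for Sphk1 and 11.5 for Acer2 by the authors' deposited table. Against lean, the same genes differed in direction, with Sgms2 at 0.287, Fa2h at 0.257 and Acer2 at 5.03 per the authors' deposited table.

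Tecr, the last enzyme of fatty acid chain elongation, had a fold of 3.03 in lean ventricle (adjusted p = 1.13e-76) and was at 0.183 in obese against lean ventricle according to the authors' deposited tables. Pex11a, which takes part in the multiplication of peroxisomes, had a fold of 2.57 and Acot1, an acyl-CoA thioesterase induced by PPAR alpha, one of 2.45 by the authors' deposited table. Bdh1, which interconverts the ketone bodies acetoacetate and 3-hydroxybutyrate, had a fold of 2.16 in lean ventricle (adjusted p = 3.83e-34) and was at 0.09 in obese against WKY per the authors' deposited tables. Acox2, a peroxisomal oxidase of branched fatty acids and bile acid precursors, was 1 of the 2 lower genes of the class. It stood at 0.46 in lean and at 0.087 in obese against WKY according to the authors' deposited tables. Of 32 genes for fatty acid oxidation and PPAR targets, Acot1 was the only one listed for lean against WKY. That is 3.12% of the list, beside 3.54% of identifiers in any table and 0.881% of protein-coding genes.

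Enzymes of amino acids, amines, sulfur and detoxification made up 16 members, 12 higher and 4 lower. Ephx2 (ENSRNOG00000017286), the soluble epoxide hydrolase that inactivates vasodilator epoxides of arachidonic acid, had a fold of 3.32 by the authors' deposited table (adjusted p = 3.18e-88). Ddo, which degrades D-aspartate, had a fold of 3.92 and Maoa, which degrades serotonin and noradrenaline, one of 3.01 per the authors' deposited table. Sulfur enzymes were higher as well. The authors' deposited table gave Cbs, of cysteine synthesis, a fold of 2.55 and Sqor, which oxidises hydrogen sulfide in mitochondria, one of 2.11 (adjusted p = 1.12e-35). Ass1, which recycles citrulline to arginine for nitric oxide synthesis, had a fold of 2.64 according to the authors' deposited table.

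Both kynurenine aminotransferase genes of the list changed, in opposite directions. Aadat had a fold of 2.13 and Kyat1 stood at 0.49 (adjusted p = 2.37e-47) by the authors' deposited table. Lower genes of this class also included Cyp1a1, the enzyme induced by aryl hydrocarbons, at 0.37 and Aldh1a1, which makes retinoic acid, at 0.50 per the authors' deposited table. Of the authors' deposited tables for obese ventricle, only the one against lean listed Ephx2, at 0.356. Maoa stood at 0.337 against WKY and at 0.078 against lean according to the authors' deposited tables. Of 41 xenobiotic and epoxide enzymes on the drawn-up list, 3 were higher and 2 lower in lean against WKY, 12.2% beside 3.54% of all identifiers.

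The class of vasoactive peptides, hormones and cell surface receptors included an enzyme of blood pressure control and several receptors. Ace (ENSRNOG00000062101), which makes angiotensin II and degrades bradykinin, had a fold of 5.43 by the authors' deposited table (adjusted p = 8.85e-67). It was the only one listed of 16 genes of the renin, angiotensin and aldosterone system, 6.25% beside a background of 3.54%. Bdkrb2, the bradykinin B2 receptor, had a fold of 2.53, Npy1r, a neuropeptide Y receptor that constricts vessels, one of 2.89 and Gper1, an oestrogen receptor of the cell surface, one of 2.41 per the authors' deposited table. P2rx1, an ATP-gated channel of smooth muscle and platelets, had a fold of 2.22, the same as Ptgfr, the prostaglandin F receptor, and Ntsr1, a neurotensin receptor, according to the authors' deposited table. The exception among 11 members was Htr2a, the serotonin 2A receptor, at 0.40 (adjusted p = 5.11e-12) by the authors' deposited table.

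In obese against WKY, 7 of the 11 genes were listed in the same direction and 2 in the opposite one, and in obese against lean 5 and 4, beside 86.7% and 86.5% of identifiers listed. Against WKY, the authors' deposited table gave folds of 3.92 for Ace, 9.06 for Bdkrb2, 10.7 for Npy1r, 9.58 for Gper1 and 7.73 for P2rx1. Htr2a stood at 0.038 in obese against WKY and at 0.115 in obese against lean per the authors' deposited tables. Some receptors ran the other way. Gpr63, an orphan receptor with a fold of 2.04 in lean, stood at 0.116 in obese against WKY and at 0.053 in obese against lean, and Ptgfr at 0.423 in the latter, per the authors' deposited tables. Ace was not listed in obese against lean, whereas Bdkrb2 (2.85), Npy1r (2.41), Gper1 (2.35) and P2rx1 (2.81) were higher there too according to the authors' deposited table.

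Interferon-induced and histocompatibility genes diverged from one another. The interferon-stimulated response element is a promoter sequence through which interferon induces many, though not all, of its targets. It was searched as GAAA, NN and GAAA in a row on both strands of RefSeq promoters (build GRCr8, from 250 bases before to 50 after the start), which come from a reference rat of another strain. Of 155 promoters of listed genes 3.87% held a match, against 3.77% of all 27457 promoters. Of the 6 class members with a promoter in the table, Ifi44l and RT1-S2 held one. They are shown because one was lower and the other higher in lean ventricle, with matches in capitals.
Ifi44l, GRCr8 chr2:243328473-243328772, plus strand: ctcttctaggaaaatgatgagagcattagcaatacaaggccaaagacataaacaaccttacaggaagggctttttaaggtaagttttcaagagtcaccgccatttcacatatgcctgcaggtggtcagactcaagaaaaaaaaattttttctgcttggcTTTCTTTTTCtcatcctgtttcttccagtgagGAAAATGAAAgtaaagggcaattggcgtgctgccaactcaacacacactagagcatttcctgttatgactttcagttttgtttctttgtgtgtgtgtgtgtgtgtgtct
RT1-S2, GRCr8 chr20:2654804-2655103, plus strand: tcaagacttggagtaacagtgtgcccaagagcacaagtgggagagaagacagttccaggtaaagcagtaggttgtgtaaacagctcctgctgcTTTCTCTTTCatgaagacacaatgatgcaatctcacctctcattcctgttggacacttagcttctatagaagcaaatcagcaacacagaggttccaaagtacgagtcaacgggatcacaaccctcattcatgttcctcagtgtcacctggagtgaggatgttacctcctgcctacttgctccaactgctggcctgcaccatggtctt

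Ifit1 and Ifi44l, both standard interferon targets, were thus on opposite sides, with folds of 15.1 and 0.24 by the authors' deposited table. They were the 2 listed of 34 interferon response genes, 5.88% beside a background of 3.54%. Gbp1, an interferon-induced GTPase, stood at 0.48 (adjusted p = 9.76e-25) and Ubd, a ubiquitin-like gene induced by interferon gamma, had a fold of 2.13 per the authors' deposited table. The RT1 genes also split. RT1-S2 had a fold of 4.47 and RT1-Db2, a class II gene, one of 2.2, while RT1-N2 stood at 0.25 according to the authors' deposited table. RT1 genes are similar to one another and differ between strains, so that reads may be divided among them, and their values are uncertain. Against WKY, obese ventricle had folds of 179.8 for Ifit1, 50.2 for RT1-S2, 17.1 for Ubd and 10.3 for RT1-Db2, and stood at 0.47 for Ifi44l and 0.159 for Gbp1 by the authors' deposited table. All 6 kept the direction of the lean comparison, and RT1-N2 was listed only against lean, at 2.91.

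Several genes that mark neutrophils, the first white cells to reach injured tissue, were lower. Of 10 neutrophil markers, S100a9 (0.33, adjusted p = 8.22e-10), Csf3r (0.33, adjusted p = 9.29e-11) and Mmp8 (0.35, adjusted p = 5.37e-09) were listed as lower and none as higher per the authors' deposited table. That is 30.0% of the markers beside 1.28% of identifiers listed as lower. S100a9 encodes a calcium-binding alarmin, Csf3r the receptor for granulocyte colony-stimulating factor and Mmp8 the neutrophil collagenase. Some other genes that neutrophils express were lower too. By the authors' deposited table Pglyrp1, a bactericidal granule protein, stood at 0.43 and Lcn2, which binds bacterial siderophores, at 0.47. Pglyrp1 was picked after its value was seen. The leukocyte, complement and cytokine class as a whole had 11 higher and 13 lower genes. Its higher genes included Il6r (2.33), Cebpb (2.35) and Fcgr2a (2.36) per the authors' deposited table. In bulk tissue, fewer cells of a type and less RNA per cell cannot be told apart.

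**Figure D3:**
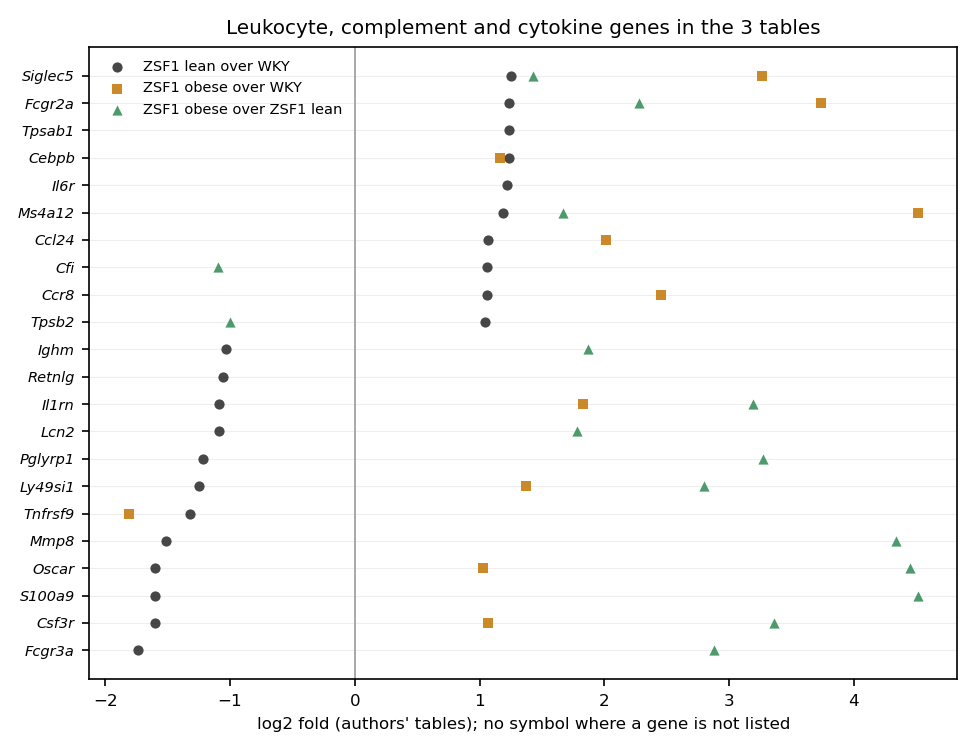
Leukocyte, complement and cytokine genes of the list, 22 of them, are ordered by their fold in ZSF1 lean against WKY. Each symbol is a log2 fold from 1 of the authors' deposited tables, circles for lean over WKY, squares for obese over WKY and triangles for obese over lean, and a missing symbol means that the gene is not in that table. For 10 of the 12 drawn genes that were lower in lean, a triangle lies to the right of 0.

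In obese against lean ventricle, 11 of the 13 lower genes of this class were listed as higher, beside 40 of all 84 lower genes (47.6%). S100a9 was 22.8 times, Mmp8 20.3 times, Csf3r 10.3 times, Pglyrp1 9.65 times and Lcn2 3.43 times as high as in lean ventricle by the authors' deposited table. The obese and the lean comparison share the lean rats, so a low lean value enters both. Against WKY, where the lean rats play no part, S100a9, Mmp8, Pglyrp1 and Lcn2 were not listed and Csf3r had a fold of 2.1 (adjusted p = 0.000598) according to the authors' deposited table. Oscar, an activating receptor of myeloid cells and osteoclasts, stood at 0.33 in lean, had a fold of 2.04 in obese against WKY and one of 21.9 in obese against lean by the authors' deposited tables. Of the 10 neutrophil markers, the obese tables listed 2 as higher against WKY and 6 as higher against lean, beside 46.8% and 46.2% of all identifiers listed as higher there. The neutrophil genes named here were listed in both comparisons that include the lean rats, and mostly not in obese against WKY. Absence from the latter does not show levels equal to WKY, and the cause of this pattern was not tested. The deposited folds of a gene did not always multiply, as set out below, which bears on these genes too.

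The row drawn as Ighm carries the description of another heavy chain gene, so which gene was counted is uncertain. The Fc receptor genes diverged. Fcgr3a, the low-affinity IgG receptor of natural killer cells and macrophages, stood at 0.30 (adjusted p = 4.15e-16) and Fcgr2a had a fold of 2.36 per the authors' deposited table. These are neighbouring genes of similar sequence, so that their separate values are uncertain. Some complement and cytokine genes were higher. In the authors' deposited table Cfi, a protease that inactivates complement fragments, had a fold of 2.08, Il6r one of 2.33, the transcription factor gene Cebpb one of 2.35 and the eosinophil chemokine gene Ccl24 one of 2.1. Cfi was at 0.467 in obese against lean according to the authors' deposited tables. Both mast cell tryptase genes were higher, Tpsab1 with a fold of 2.35 and Tpsb2 with one of 2.06 by the authors' deposited table, although near-identical sequence leaves their separate values uncertain.

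Red cell genes did not move as 1 group. Of 10 erythroid markers, Slc4a1, the anion exchanger band 3, had a fold of 5.5 (adjusted p = 5.16e-66) and Epb42, its partner in the red cell membrane skeleton, stood at 0.43 (adjusted p = 7.79e-07) per the authors' deposited table. These were 2 of 10 (20.0%) beside a background of 3.54%, and the globin genes and Alas2 were not listed. Against WKY, obese ventricle had folds of 2.36 for Slc4a1 and 2.07 for Epb42 according to the authors' deposited table. Against lean they lay apart, with Slc4a1 at 0.374 and Epb42 at 6.68 by the authors' deposited table.

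The 4 lower genes of cell division, repair and stress all act in mitosis. According to the authors' deposited table Ube2c, which feeds the anaphase-promoting complex, stood at 0.50, Prc1, which bundles the central spindle, at 0.49, Cenpf, of the kinetochore, at 0.46 and Ckap2, a spindle protein, at 0.44. In obese against lean ventricle all 4 were higher, with folds of 6.28, 2.91, 5.54 and 5.46 in that order by the authors' deposited table, as were 47.6% of all lower genes. Against WKY, Ube2c alone was listed, with a fold of 2.48 per the authors' deposited table. Stress and repair genes of the same class were higher. The authors' deposited table gave Rtel1, a telomere helicase, a fold of 3.16, Polq, an error-prone repair polymerase, one of 2.66, Gadd45g one of 2.23, Ddit4, an inhibitor of the growth kinase mTOR, one of 2.11 and Phlda3, a p53 target, one of 2.04.

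Matrix, adhesion and protease genes counted 18 higher and 5 lower. Col15a1, a collagen of basement membranes around muscle cells and capillaries, stood at 0.31 (adjusted p = 1.58e-21) and Cpxm2, a carboxypeptidase-like secreted protein, at 0.34 (adjusted p = 5.87e-40) according to the authors' deposited table. Cdh13, the receptor of the vessel wall for adiponectin, stood at 0.49 (adjusted p = 1.24e-27) by the authors' deposited table. The fibrillar collagen genes Col1a1 and Col3a1 were not listed. Among higher genes were Vwa2 (7.36), Spock2, a proteoglycan (2.41), Spp1, which encodes osteopontin (2.35), and Prrg4 (2.13) per the authors' deposited table. Osteopontin is a marker of injured heart tissue, and in obese against WKY ventricle Spp1 had a fold of 30.5 according to the authors' deposited table. Of 38 extracellular matrix genes on the drawn-up list, Spp1 was higher and Mmp8 and Col15a1 were lower in lean, 7.89% beside 3.54%.

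Kinase and growth factor genes were higher with few exceptions. Map3k7, the kinase TAK1 that links cytokine receptors to NF-kappaB and to stress kinases, had a fold of 5.46 in lean and of 14.3 in obese against WKY by the authors' deposited tables. Map3k5, the stress kinase ASK1, had a fold of 2.68 (adjusted p = 6.21e-25) per the authors' deposited table and was in neither obese table. Fgfr2 had a fold of 3.78, Pak5 one of 3.92, Srms one of 3.51 and Creg1, a lysosomal glycoprotein, one of 2.97 (adjusted p = 8.45e-66) according to the authors' deposited table. Lower genes of the class, named after their values were seen, were Fgf18 at 0.43 and Inha at 0.41 by the authors' deposited table.

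Ion channel and transporter genes were led by Slc4a1, and none of the 32 genes on the list of calcium handling and cardiac channels was among them. That list does not hold every channel gene, and some outside it were listed, Kcnj14 among them. In the authors' deposited table, Kcnj14, an inward rectifier, had a fold of 2.43, Slc9a2, a sodium-proton exchanger, one of 3.12 and Tmem163, a zinc transporter, one of 2.69. Lower genes included Slc28a3, a nucleoside transporter, at 0.33, Atp1a4, a sodium pump subunit of sperm, at 0.39 and Panx2 at 0.46 per the authors' deposited table. In obese against WKY, Atp1a4 was at 0.027 according to the authors' deposited table. Muscle filament genes were 2, Neb, the thin filament ruler of skeletal muscle, with a fold of 2.11 and Lmod2, which lengthens cardiac thin filaments, with one of 2.07 by the authors' deposited table. Neither was on the drawn-up list of 23 sarcomere genes.

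Genes best known from neurons came to 14, 9 higher and 5 lower. Beside Plppr4 and Sez6l, the authors' deposited table gave Dner, a Notch ligand, a fold of 5.90 and Lrrn1 one of 3.12, and placed Cntnap2, an axonal adhesion gene, at 0.36 (adjusted p = 2.00e-31), Opcml at 0.32 and Vxn at 0.29. Dner stood at 0.08 in obese against lean and was not listed in obese against WKY per the authors' deposited tables.

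Genes of chromatin, transcription, RNA and ribosomes were split almost evenly. Setd4 led the class, and Rpl30, a ribosomal protein with many pseudogenes, had a fold of 3.03 according to the authors' deposited table. In the same authors' deposited table Rc3h2, which degrades inflammatory mRNAs, stood at 0.48 (adjusted p = 1.24e-27) and Ino80e, of a nucleosome remodelling complex, at 0.47 (adjusted p = 9.57e-29). Among traffic and turnover genes, Tom1l1 stood at 0.37 (adjusted p = 2.54e-59) and Trim50 at 0.48 by the authors' deposited table.

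Recurrence in the obese tables was counted by Ensembl identifier. The obese against WKY table shares the WKY rats with the lean comparison, and the obese against lean table shares the lean rats, so neither count is independent. At least 1 obese table held 207 of the 233 genes (88.8%), and both held 79 (33.9%). Over all 6588 identifiers these shares were 99.6% and 73.6%. In obese against WKY 152 genes were listed (65.2% of the lean list, 2.66% of the obese list), 129 in the same direction and 23 in the opposite one. In obese against lean 134 were listed (57.5% of the lean list, 2.35% of the obese list), 46 in the same direction and 88 in the opposite one. The background for being listed was 86.7% and 86.5%, and it is high because it counts only identifiers that some table lists.

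**Figure D4:**
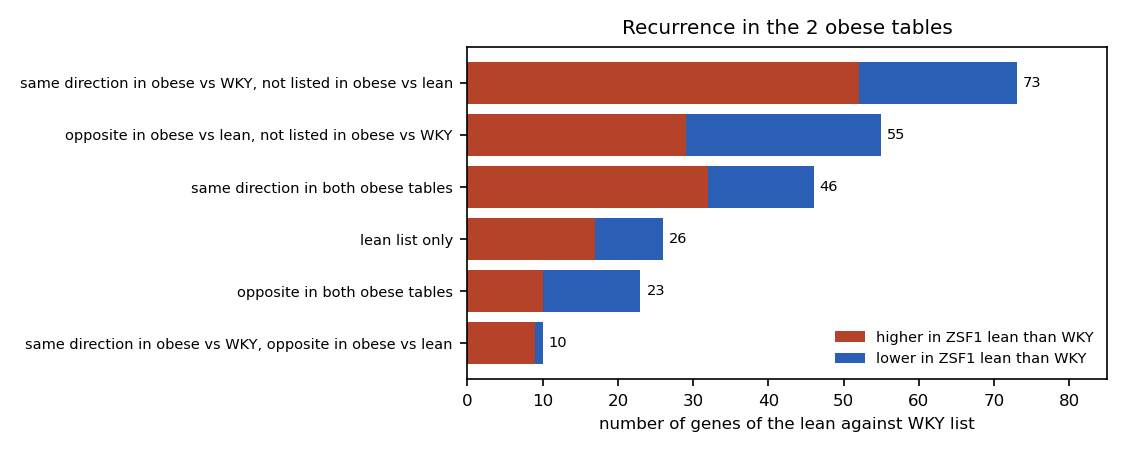
Bars count the 233 genes of the lean against WKY list by their place in the authors' 2 obese tables, with the number of genes on the horizontal axis. Red stands for genes higher and blue for genes lower in lean than in WKY ventricle. The longest bar holds 73 genes listed in the same direction in obese against WKY and not listed in obese against lean.

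The largest group, 73 genes, was listed in the same direction in obese against WKY and not in obese against lean. It held 52 higher and 21 lower genes, among them Ifit1, Ace, Fbp2 and Map3k7 on the higher side and Egfl6, Pus7l, Ccdc68, Tom1l1 and Cpxm2 on the lower. Egfl6 stood at 0.19 in lean and at 0.141 in obese against WKY per the authors' deposited tables. Absence from the obese against lean table does not show that both ZSF1 groups had equal levels. For Ifit1, the folds of 15.1 and 179.8 against WKY lie far apart. The latter was the highest fold of the whole obese against WKY table.

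Another 46 genes were listed in the same direction in all 3 tables, 32 higher and 14 lower. The higher ones included Tcp11x2, with a fold of 14.8 in lean against WKY, 174 in obese against WKY and 6.45 in obese against lean according to the authors' deposited tables. Setd4 had folds of 8.00, 94.4 and 2.95 in the same order by the authors' deposited tables. Lower ones included Kyat1 at 0.49, 0.137 and 0.281, Tdrd1 at 0.29, 0.072 and 0.266, and Klhdc8a at 0.25, 0.065 and 0.319 per the authors' deposited tables.

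Listed in the opposite direction in obese against lean were 88 genes, 32.2% of the higher and 47.6% of the lower ones, in a comparison that shares the lean rats. Of these, 55 were not listed in obese against WKY, 29 of them higher and 26 lower in lean. Ephx2, Tecr, Dnah5, Dner and Ddo were among the higher ones, and S100a9, Mmp8, Fcgr3a and Col15a1 among the lower. A further 10 were still listed on the lean side of WKY, among them Eno1, Slc4a1, Pbld1, Frmpd1 and Ifi44l. For Plppr4, Cnpy1 and Pld5, also among the 10, the tables disagreed on direction. Against WKY, Plppr4 had folds of 17.5 in lean and 29.7 in obese, yet stood at 0.287 in obese against lean. In the same order Cnpy1 had 3.41, 4.20 and 0.277, and Pld5 3.05, 4.50 and 0.483, per the authors' deposited tables. The other 23 were listed on the opposite side of WKY, 10 higher and 13 lower in lean, such as Maoa and Bdh1 among the higher and Csf3r and Epb42 among the lower.

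The remaining 26 genes were listed for lean against WKY alone, 17 higher and 9 lower. Per the authors' deposited table they included Creg1 (2.97), Map3k5 (2.68), Tpsab1 (2.35), Il6r (2.33), Pfkl (2.19) and Sqor (2.11) as higher. Aldh1a1 (0.50), Ino80e (0.47) and Cntnap2 (0.36) were among those lower according to the authors' deposited table. That they differ in lean ventricle alone was not tested.

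The 3 folds of a gene should multiply, since obese over WKY equals obese over lean times lean over WKY when all come from the same group means. For the 79 genes in all 3 tables, the obese over WKY fold was divided by the obese over lean fold and set against the deposited lean over WKY fold. All 51 higher genes had a deposited lean fold closer to 1 than this quotient, and so had all 28 lower genes. The difference was within 0.1 on the log2 scale for 16 genes and beyond 1 for 13. Eno1 nearly closed, with a quotient of 5.35 against a deposited 5.17, whereas Plppr4 gave 103 against 17.5, Setd4 32.0 against 8.00 and RT1-S2 23.1 against 4.47. Among lower genes the gap was widest for Oscar, with a quotient of 0.0934 against a deposited 0.33. Its cause was not tested, and it bears on every lean fold set beside an obese one here.

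**Figure D5:**
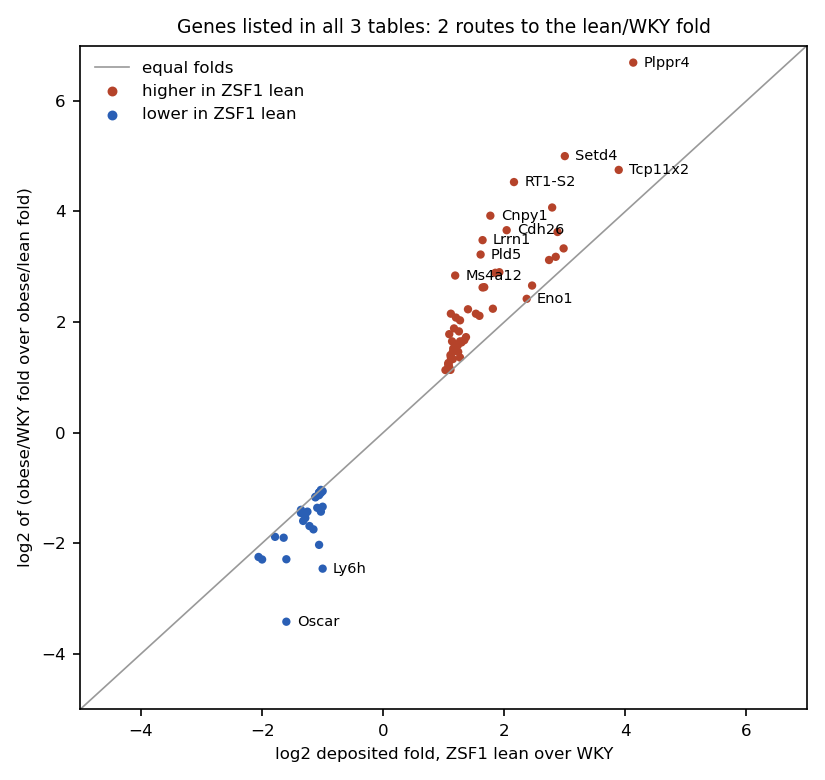
Each point is 1 of the 79 genes listed in all 3 tables, with the log2 of the deposited ZSF1 lean over WKY fold on the horizontal axis and the log2 of the obese over WKY fold divided by the obese over lean fold on the vertical axis. The grey line marks equal folds. All red points, higher in lean, lie above the line and all blue points, lower in lean, below it.

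The same gap touches the size of recurrence. Of the 93 genes higher in both ZSF1 groups against WKY, 80 had an obese fold farther from 1 than the lean fold, with medians of 5.54 and 2.41. Of the 36 lower in both, 32 did, with medians of 0.22 and 0.41. The 80 higher genes include Plppr4, Cnpy1 and Pld5, although obese against lean listed them as lower. Outside the lean list, 4768 genes stood in both obese tables, and for 156 of them the quotient was at least 2 or at most 0.5, past the fold limit of the lean list.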

How the data were processed

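Per the labels' protocols, left ventricle RNA was isolated with a Qiagen column kit and made into stranded poly(A) libraries, read as single ends on a HiSeq. The submitters' processing notes name HISAT2 2.1.0, HTSeq 0.11.2, DESeq2 1.22.2 and the rat build Rnor_6.0. Settings, covariates and the treatment of multiply mapped reads are not given in the labels or notes. Per the file headers, each table the authors deposited holds a linear fold (a ratio, first named group over second) and an FDR, which is an adjusted p-value. Both were used as they stand. No new test was made, because counts and values per rat were not used here, and depth, spread and left-out rats are not given for the same reason. The labels give every library the same batch entry and pair no rats.

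Rows were joined by Ensembl identifier. All members and lists were chosen with earlier results of these data known. Classes were assigned by hand from symbol and description after the table had been read. Genes were named by rule: the 12 largest and 12 smallest folds, the 8 genes of smallest adjusted p among higher and among lower ones, list members, up to 8 per class by adjusted p, and up to 12 of those in all 3 tables, with predicted and clone names left out. The rule did not cover, and a look at the values led to, Cbs, Aadat, Ptgfr, Pglyrp1, Oscar, Fcgr2a, Tpsab1, Tpsb2, Ube2c, Cenpf, Fgf18, Inha, Epn3, Rbm12b, Mest, Zfp57, Cnpy1, Pld5 and 2 clone names, the Eno1 pseudogene among them. Symbols of 207 of 233 genes matched a RefSeq entry of GRCr8, a build other than the authors', which served only for gene order and promoter sequences. The other listed genes are counted but not named, and some the rule covers are not reported here. The join and counts were tested on simulated data. Python 3.11.15, pandas 2.3.3 and numpy 2.4.6 were used.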

Additional observations from a re-analysis of the deposited data

How the results depend on the processing

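The counts of 149 higher and 84 lower genes could not change at an FDR under 0.01 or 0.001, since the largest FDR was 0.000347. Nor could they change when symbols were counted, since no symbol was repeated. They were 140 and 73 without the 20 predicted and clone names, which were set by how the symbol begins. The class of pseudogenes, predicted genes and clone names is wider, with 26 members. With folds restricted to 4 and above or 0.25 and below they dropped to 19 higher and 5 lower genes. Under that fold limit in both tables, 12 genes were shared with obese against WKY and 4 with obese against lean, since far fewer rows qualify. With an FDR under 0.01 on both sides, 145 genes were shared with the former and 129 with the latter, by symbol 153 and 135, and, chosen after seeing the data, 132 and 118 with obese rows held to the largest FDR of the lean list. The share of neighbouring positions that held a listed gene was 4.41% for nearest genes and 2.29% within 3 genes on either side. No paired analysis was possible because the groups share no replicate numbers and the tables hold no values per rat. For the same reason leaving out each rat and refitting with another normalization or filter were not run. Depth is unknown, and a gene that is not listed cannot be read as unchanged.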

Other observations

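Some listed genes lie side by side. Of the 233 genes, 204 were placed by symbol in the order of 23149 protein-coding genes of the GRCr8 annotation, where 0.881% of all genes were listed. Of the 408 positions directly beside a listed gene, 18 (4.41%) held another listed gene, in 9 adjacent pairs. Ace (fold 5.43) lay beside Cyb561, an electron carrier of secretory vesicle membranes (fold 2.17), by the folds of the authors' deposited table. Epn3 (fold 2.45) and Mycbpap (fold 2.69) were another pair higher together per the authors' deposited table. In 5 of the 9 pairs the neighbours went in opposite directions, such as Tdrd1 (0.29) with Vwa2 (7.36), Ifi44l (0.24) with Ptgfr (2.22), and Rbm12b (2.19) with Cibar1 (0.48) per the authors' deposited table. Tpsab1 with Tpsb2, Fcgr3a with Fcgr2a and RT1-N2 with RT1-S2 are pairs of related genes, whose separate values are uncertain. These pairs were chosen after their values were seen, and no test was made.

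Genes that are expressed from 1 parental copy stood among the listed ones, an observation made after the values were seen. Mest was at 0.41 and Nap1l5 had a fold of 3.29 per the authors' deposited table, and Zfp57, which maintains such imprints, was at 0.49. In obese against lean ventricle, Mest had a fold of 4.35, Zfp57 one of 6.5 and Nap1l5 stood at 0.42 per the authors' deposited table.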
